A study of Homo sapiens and Mus musculus with 8 samples.

Results

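The sterol and fatty acid synthesis genes are 35 human genes, taken by symbol from the 58381 gene identifiers of a bulk count table of OVCAR-8 cells and sorted by step into 7 of the mevalonate pathway, 11 of sterol synthesis, 5 that regulate the SREBP transcription factors, 3 of sterol uptake and transport, 3 of sterol efflux and esterification and 6 of fatty acid synthesis. OVCAR-8 is a human high-grade serous ovarian cancer line. It was edited with the Cas9 vector lentiCRISPRv2 carrying a guide against ATG9A (sgATG9A, labelled ATG9A KO) or a control guide named for the yeast factor GAL4, which human cells lack (sgGAL4, labelled GAL4 KO), and both groups therefore carry Cas9 and a guide. Each group had 2 libraries that the labels call biological replicates, and whether these came from separate infections or from 1 population or clone is not given in the sources used here, so that p-values measure the spread between these libraries. ATG9A encodes a lipid scramblase of autophagy vesicles, and the study asked how its loss alters the response of ovarian cancer cells to killing by macrophages.

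Cells build cholesterol from acetyl-CoA through mevalonate and squalene, and build fatty acids from the same acetyl-CoA through malonyl-CoA. Genes of both routes are switched on together by SREBP-1 and SREBP-2, membrane-bound factors that SCAP escorts from the endoplasmic reticulum when sterols run low and that the INSIG proteins hold back when sterols are plentiful. Surplus cholesterol is esterified by SOAT1 for storage in lipid droplets or exported by ABCA1 and ABCG1, and cholesterol taken up in lipoproteins leaves lysosomes through NPC2 and NPC1.

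The libraries held 22200998 to 22969233 counts, with 3.72% to 4.39% of them from mitochondrial genes, and Pearson's r of log2 counts across genes was 0.994 between the 2 libraries of either group. ATG9A itself stood at 12.8 and 11.5 CPM (counts scaled to a common library total by edgeR's TMM method) in sgATG9A libraries, against 20.4 and 18.4 CPM in sgGAL4 libraries, a log2 fold change of -0.68 (SE 0.10, adjusted p = 4.22e-05). The transcript was lower in both sgATG9A libraries and not absent from either, and an edit that shifts the reading frame need not remove the RNA. Of 10 epithelial and ovarian markers, KRT8, KRT18 and KRT7 were lower (log2 fold change -0.73, -0.83 and -0.79), PAX8 was higher (1.21) and KRT19 had no count, with the summed level at 2461 to 2466 CPM in sgATG9A and 3849 to 3978 CPM in sgGAL4 libraries. Of 6 fibroblast markers COL1A1 and PDGFRB were lower, DCN had no count and the sum was 257 to 264 CPM in sgATG9A and 429.8 to 470.0 CPM in sgGAL4 libraries. The 8 macrophage markers summed to 1.72 to 1.76 CPM in sgATG9A and 1.83 to 1.98 CPM in sgGAL4 libraries, with ITGAM higher, CD14 lower and PTPRC and CD163 at 0. The part of these marker differences in the lipid gene results was not tested.

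In sgATG9A cells 10 of the 35 genes were lower and 2 were higher at an adjusted p under 0.05. Of the lower genes, 9 encode enzymes that make sterols or fatty acids and LPIN1 an enzyme that makes diacylglycerol, and the 2 higher genes, SOAT1 and NPC1, encode the enzyme that esterifies cholesterol and the protein that exports it from lysosomes. All 35 genes had enough counts to be tested. In either direction 16.3% of the 16141 genes tested were called. The share lower was 28.6%, beside 7.42% of all genes, and the share higher was 5.71%, beside 8.93%. The changes were small, and none of the called genes among the 35 passed a log2 fold change of 1 in either direction, whereas 310 of all genes were both called and past it. The median log2 fold change was -0.13, against -0.0022 over all genes, and 26 of 35 values (74.3%) were negative, against 50.4% of all genes. Both sgATG9A libraries lay below both sgGAL4 libraries for 18 genes (51.4%, beside 27.5% of all genes) and above them for 5 (14.3%, beside 27.8%), and the groups overlapped for 12.

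**Figure D1:**
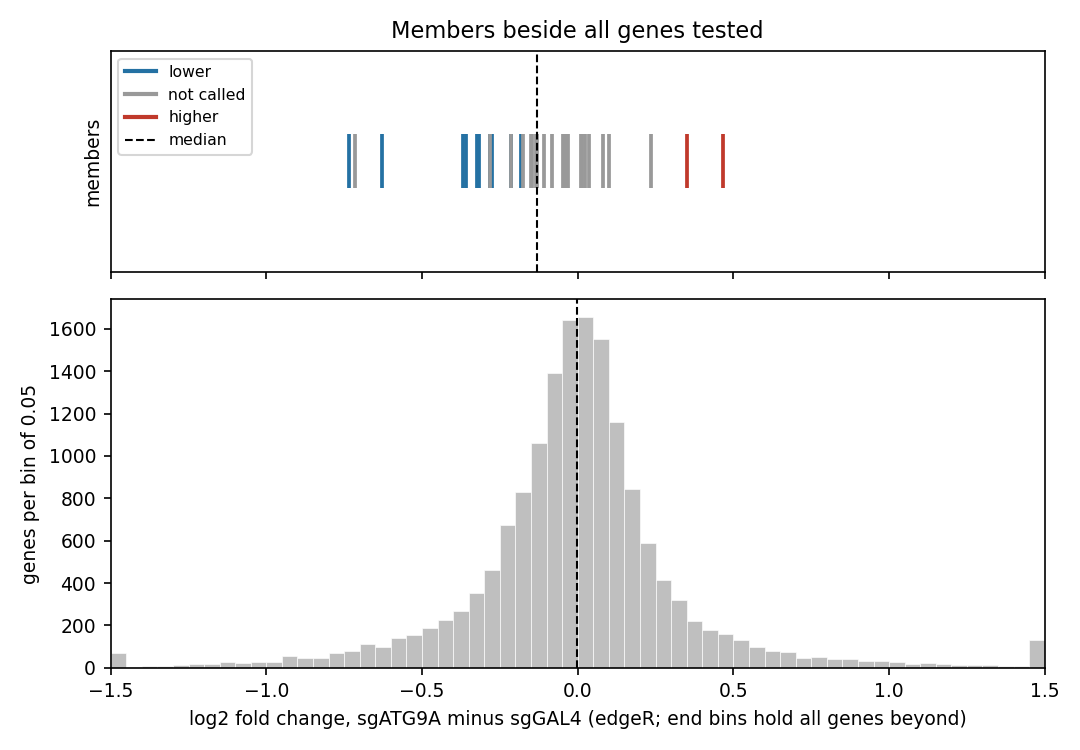
The upper panel marks the log2 fold change (sgATG9A minus sgGAL4) of each of the 35 genes, coloured by call, and the lower panel is a histogram of all 16141 genes tested in bins of 0.05, whose end bins hold every gene beyond the axis. Dashed lines mark the medians of -0.13 and -0.0022, and the lower genes lie between -0.73 and -0.18.

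Fatty acid synthesis was the step with the lowest median, -0.32, and 4 of its 6 genes fell (66.7%, beside 7.42% of all genes). SCD (ENSG00000099194.5, chromosome 10, 100347124 to 100364834, GRCh38), the desaturase that turns stearate into oleate, had 150.1 and 153.2 CPM in sgATG9A libraries, against 250.9 and 253.3 CPM in sgGAL4 libraries. It was 1.66-fold lower, with a log2 fold change of -0.73 (SE 0.05, adjusted p = 2.72e-10), the change with the smallest p among the 35. The 2 libraries of each group lay close together, and the groups were far apart. SCD has 1 named pseudogene, SCDP1, which could take some of its reads, and this was not tested. FASN (ENSG00000169710.8, chromosome 17, 82078333 to 82098332), the synthase that assembles palmitate, had 351 and 354 CPM in sgATG9A and 434 and 445 CPM in sgGAL4 libraries, a log2 fold change of -0.32 (SE 0.05, adjusted p = 4.05e-05). ELOVL6, which elongates palmitate to stearate, had 54.0 and 54.9 CPM in sgATG9A and 70.0 and 66.3 CPM in sgGAL4 libraries (log2 fold change -0.32, SE 0.06, adjusted p = 0.000328). The groups did not overlap for FASN or ELOVL6 either, and both sgATG9A libraries lay below both sgGAL4 libraries for 27.5% of all genes.

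LPIN1, a phosphatidate phosphatase that makes diacylglycerol for triglycerides and phospholipids, had 17.8 and 19.2 CPM in sgATG9A libraries and 22.04 and 25.48 CPM in sgGAL4 libraries (log2 fold change -0.36, SE 0.09, adjusted p = 0.0104). Its call was lost without sgATG9A library 1 (adjusted p = 0.0609) or sgGAL4 library 2 (0.176). The 2 enzymes ahead of FASN were not called. ACLY, which cleaves citrate to acetyl-CoA, had 345.9 and 354.7 CPM in sgATG9A and 344.1 and 338.8 CPM in sgGAL4 libraries, a log2 fold change of 0.04 with a 95% interval of -0.06 to 0.14. ACACA, which carboxylates acetyl-CoA to malonyl-CoA, had 106.7 and 110.9 CPM in sgATG9A and 114.5 and 115.7 CPM in sgGAL4 libraries, a log2 fold change of -0.08 with an interval of -0.18 to 0.02. A 1.66-fold fall like that of SCD lies outside both intervals.

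**Figure D2:**
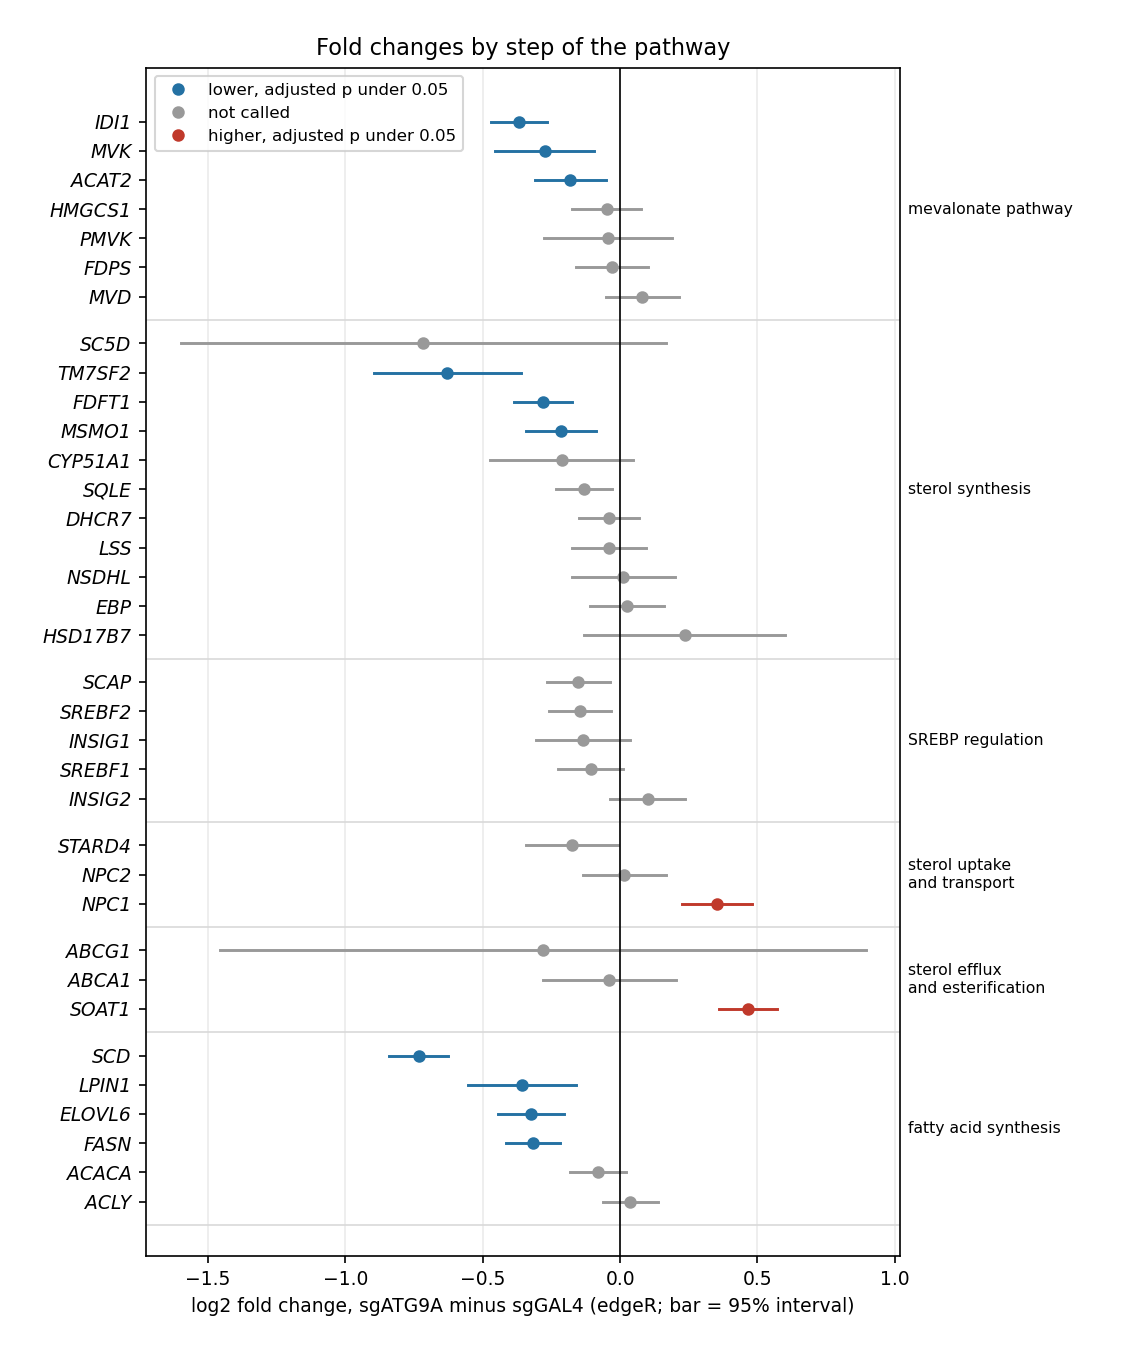
Log2 fold changes (sgATG9A minus sgGAL4, horizontal axis) of the 35 genes in 6 steps with 95% intervals from edgeR, blue for lower and red for higher at an adjusted p under 0.05. SCD at -0.73 and SOAT1 at 0.47 are the called genes farthest from 0 on each side, and the widest bars belong to SC5D and ABCG1.

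Of the 7 mevalonate pathway genes 3 fell (42.9%, beside 7.42% of all genes), and the median was -0.05. IDI1 (ENSG00000067064.11, chromosome 10, 1039152 to 1049170), the isomerase that interconverts the isoprenoid building blocks isopentenyl and dimethylallyl diphosphate, had 104.5 and 103.8 CPM in sgATG9A libraries, against 133.8 and 135.1 CPM in sgGAL4 libraries. Its log2 fold change was -0.37 (SE 0.05, adjusted p = 7.69e-06). The gap between the groups was many times the spread within them. IDI2-AS1, which shares 14.8% of the exon bases of IDI1 on the other strand, held 1 to 5 counts in any library. Those counts leave out reads that overlap both genes, and the part of IDI2-AS1 in the IDI1 value was not tested. MVK, mevalonate kinase, had 24.2 and 21.3 CPM in sgATG9A and 28.8 and 26.3 CPM in sgGAL4 libraries (log2 fold change -0.28, SE 0.09, adjusted p = 0.0332), a call lost without sgATG9A library 2 (adjusted p = 0.311) or sgGAL4 library 1 (0.254). MMAB, which shares 4.72% of the MVK exon bases on the opposite strand, had a log2 fold change of -0.22 and was not called (adjusted p = 0.121). The part of MMAB in the MVK value was not tested. ACAT2, the thiolase that joins acetyl-CoA units into acetoacetyl-CoA, had 47.0 and 48.8 CPM in sgATG9A and 52.7 and 56.0 CPM in sgGAL4 libraries (log2 fold change -0.18, SE 0.06, adjusted p = 0.0495). Leaving out any single library ended the ACAT2 call, with adjusted p of 0.267 and 0.0916 without sgATG9A library 1 or 2 and 0.0553 and 0.275 without sgGAL4 library 1 or 2.

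The ACAT2 value is uncertain for a further reason. In the annotation 52.3% of its exon bases are shared with other genes, among them TCP1 and an entry of the name SOD2, both on the opposite strand. The authors' counting ignored strand and dropped reads that overlap several genes. TCP1 stood at 302 and 307 CPM in sgATG9A and 274 and 293 CPM in sgGAL4 libraries (log2 fold change 0.10, adjusted p = 0.197). The SOD2 entry that was measured (ENSG00000112096.17, mitochondrial superoxide dismutase) stood at 301.4 and 301.4 CPM in sgATG9A and 36.3 and 33.2 CPM in sgGAL4 libraries, a log2 fold change of 3.12. It ends at position 159745186 of chromosome 6, before ACAT2 starts at 159760328, and is thus not the SOD2 entry that shares bases with ACAT2. The part of the overlapping genes in the ACAT2 value was not tested. The other 4 mevalonate genes were not called. HMGCS1, which makes HMG-CoA, had 55.4 and 53.2 CPM in sgATG9A and 58.0 and 54.3 CPM in sgGAL4 libraries (log2 fold change -0.05, interval -0.18 to 0.08). MVD, mevalonate diphosphate decarboxylase, had 56.6 and 52.2 CPM in sgATG9A and 53.2 and 49.7 CPM in sgGAL4 libraries (log2 fold change 0.08, interval -0.05 to 0.21). In all 4 the libraries of the groups overlapped, with log2 fold changes of -0.04 for phosphomevalonate kinase PMVK and -0.03 for farnesyl diphosphate synthase FDPS, which has 8 named pseudogenes that could take some of its reads.

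Of the 11 sterol synthesis genes 3 fell (27.3%, beside 7.42% of all genes) and none rose (beside 8.93%), and the median was -0.13. FDFT1 (chromosome 8, 11795573 to 11839309), squalene synthase, which commits farnesyl units to sterols, had 94.6 and 100.3 CPM in sgATG9A libraries and 116.7 and 120.2 CPM in sgGAL4 libraries, a log2 fold change of -0.28 (SE 0.05, adjusted p = 0.00034). TM7SF2 (ENSG00000149809.14, chromosome 11, 65111845 to 65116384), a sterol C14 reductase, had 7.07 and 6.20 CPM in sgATG9A and 10.4 and 10.1 CPM in sgGAL4 libraries, a log2 fold change of -0.63 (SE 0.13, adjusted p = 0.0013). MSMO1, the oxidase that starts removal of the C4 methyl groups, had 53.1 and 58.2 CPM in sgATG9A and 66.3 and 63.1 CPM in sgGAL4 libraries (log2 fold change -0.22, SE 0.06, adjusted p = 0.0171). The groups did not overlap for any of the 3, with sgATG9A below as for 27.5% of all genes. The MSMO1 call alone was lost without a library, namely sgATG9A library 1 (log2 fold change -0.15) or sgGAL4 library 1 (-0.18).

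The remaining sterol enzymes were not called. SQLE, squalene epoxidase, had 115.9 and 111.3 CPM in sgATG9A and 123.2 and 125.6 CPM in sgGAL4 libraries (log2 fold change -0.13, interval -0.23 to -0.03, adjusted p = 0.0771). HSD17B7, a ketosteroid reductase with 2 named pseudogenes, had the highest value of the step, with 5.12 and 4.53 CPM in sgATG9A and 3.79 and 4.40 CPM in sgGAL4 libraries (log2 fold change 0.24, interval -0.13 to 0.60). SC5D, lathosterol oxidase, had the lowest at 0.486 and 0.615 CPM in sgATG9A and 1.03 and 0.792 CPM in sgGAL4 libraries. Its log2 fold change of -0.72 (interval -1.60 to 0.17) rests on 66 counts over the 4 libraries, and a difference of the size of the TM7SF2 change was not detectable at that depth. CYP51A1, lanosterol demethylase, was at -0.21 (interval -0.47 to 0.05), shares 83.2% of its exon bases with other annotated genes and has 3 named pseudogenes. Lanosterol synthase LSS, C4 sterol dehydrogenase NSDHL, the sterol isomerase EBP and the reductase DHCR7 lay between -0.04 and 0.02.

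**Figure D3:**
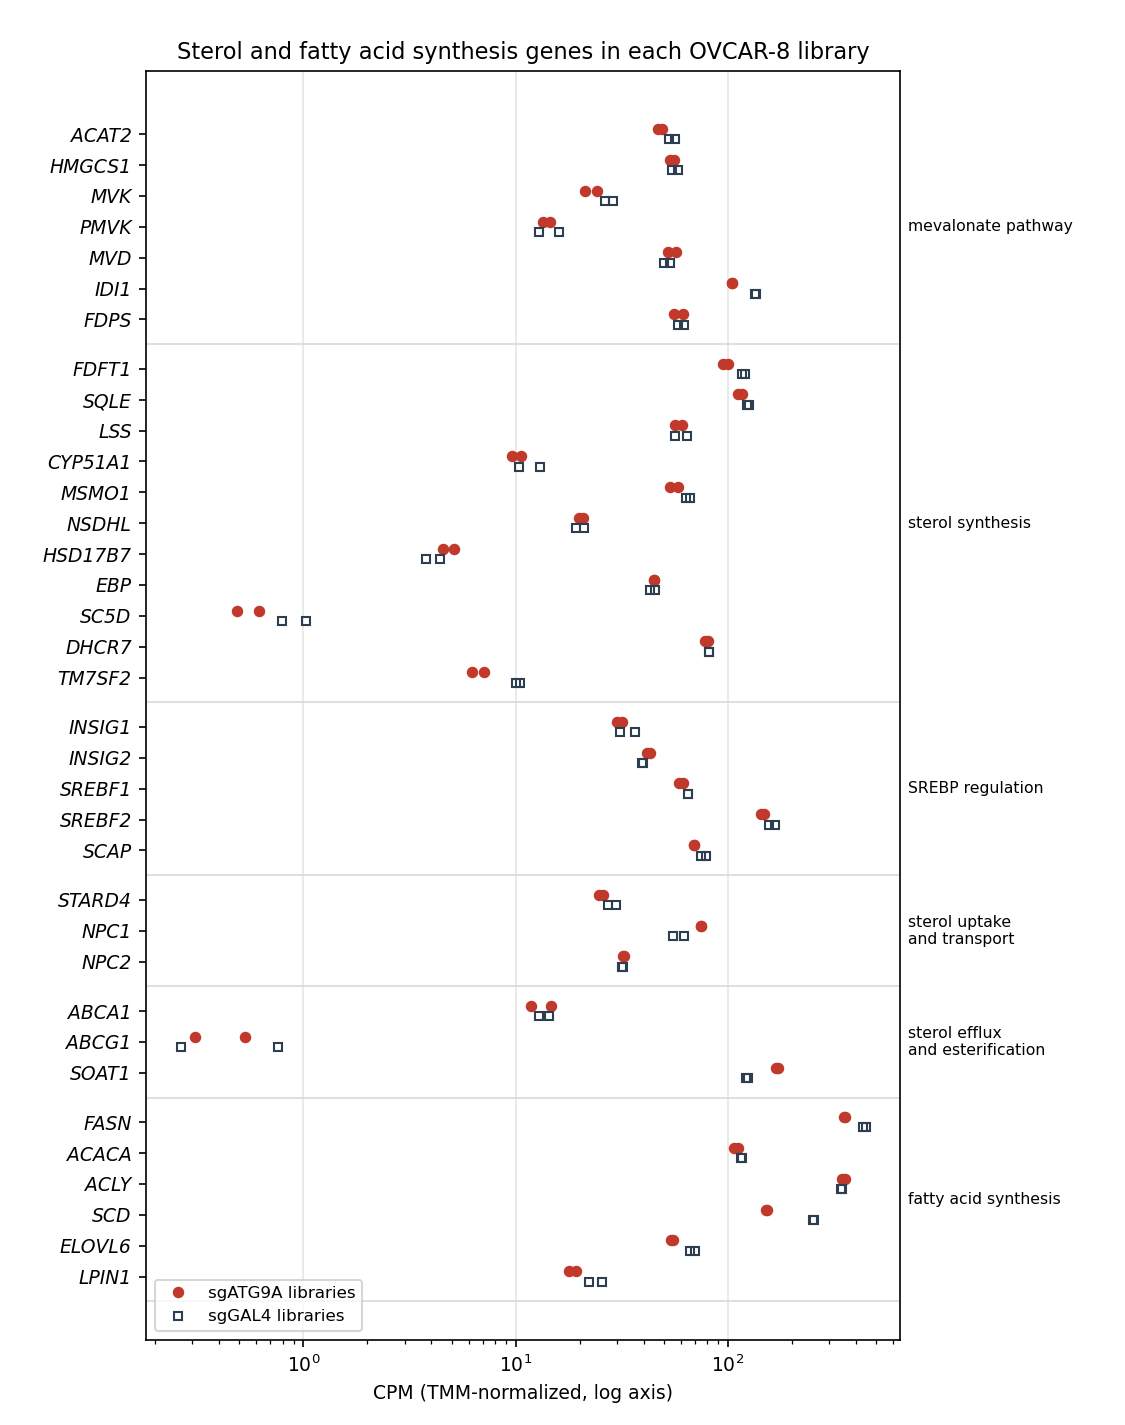
CPM of each of the 35 genes in every library on a logarithmic axis, with the 2 sgATG9A libraries drawn above the 2 sgGAL4 libraries of the same gene. The library points of SCD separate at about 150 CPM in sgATG9A and 250.9 to 253.3 CPM in sgGAL4, and SC5D and ABCG1 are the genes near or below 1 CPM.

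None of the 5 genes of SREBP regulation was called in either direction, beside 16.3% of all genes. At that share few calls are awaited among 5 genes, so their absence does not set this step apart. The median of the step was -0.13, as over the 35 genes. SCAP, the SREBP escort, had 69.4 and 68.9 CPM in sgATG9A and 78.7 and 75.0 CPM in sgGAL4 libraries (log2 fold change -0.15, SE 0.06, adjusted p = 0.0652). SREBF2, the gene of SREBP-2, had 142.4 and 148.0 CPM in sgATG9A and 166.3 and 155.2 CPM in sgGAL4 libraries (log2 fold change -0.15, SE 0.05, adjusted p = 0.0711). For both genes the 2 sgATG9A libraries were the lower ones, as for 27.5% of all genes, without passing the threshold. Over the 9 alternatives described below, SREBF2 passed it in 2 and SCAP in 1. The log2 fold change of SREBF2 ranged from -0.19 to -0.10 over them, and its adjusted p in DESeq2 was 0.152. INSIG2 had 43.0 and 41.6 CPM in sgATG9A and 39.3 and 39.6 CPM in sgGAL4 libraries (log2 fold change 0.10, interval -0.04 to 0.24). SREBF1, the gene of SREBP-1, was at -0.11 (interval -0.23 to 0.01) and INSIG1 at -0.13 (interval -0.30 to 0.04). Of the 23 genes not called in all steps, 4 had an unadjusted p under 0.05, namely SQLE, SREBF2, SCAP and the sterol carrier gene STARD4, all with negative values. The share of all genes at that looser threshold was not counted, so nothing is concluded from these 4.

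Of the genes that rose, NPC1 belongs to sterol uptake and transport and SOAT1 to sterol efflux and esterification. Their share of the 35 genes (5.71%) was below the 8.93% of all genes. SOAT1 (ENSG00000057252.12, chromosome 1, 179293714 to 179358680) had 167.4 and 172.2 CPM in sgATG9A libraries, against 121.9 and 124.0 CPM in sgGAL4 libraries. It was 1.38-fold higher, with a log2 fold change of 0.47 (SE 0.05, adjusted p = 5.63e-07). NPC1 (ENSG00000141458.12, chromosome 18, 23506184 to 23586898) had 74.5 and 74.9 CPM in sgATG9A and 54.8 and 62.1 CPM in sgGAL4 libraries, a log2 fold change of 0.35 (SE 0.06, adjusted p = 0.000245). The sgATG9A libraries were above both sgGAL4 libraries for each gene, as for 27.8% of all genes. RMC1, which shares 5.98% of the NPC1 exon bases on the opposite strand, was also higher (log2 fold change 0.41, adjusted p = 0.0128, or 0.211 without sgGAL4 library 1), and its part in the NPC1 value was not tested.

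The other 4 genes of sterol uptake, transport, efflux and esterification were not called. STARD4, which carries sterols between membranes, had 24.8 and 25.7 CPM in sgATG9A and 27.3 and 29.7 CPM in sgGAL4 libraries (log2 fold change -0.18, interval -0.34 to -0.01, adjusted p = 0.157). NPC2, the soluble partner of NPC1 in lysosomes, was at 0.01 (interval -0.14 to 0.17). ABCA1, which loads cholesterol onto apolipoproteins, had 11.8 and 14.7 CPM in sgATG9A and 12.8 and 14.4 CPM in sgGAL4 libraries, with the sgGAL4 values inside the sgATG9A range (log2 fold change -0.04, interval -0.28 to 0.20). ABCG1, the exporter to mature lipoproteins, had 0.530 and 0.308 CPM in sgATG9A and 0.758 and 0.264 CPM in sgGAL4 libraries, and its log2 fold change of -0.28 (interval -1.46 to 0.89) rests on 42 counts.

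The promoters of the called genes were examined because SREBP acts there together with the CCAAT-binding factor NF-Y. RefSeq windows of 250 bases before to 50 bases after the start site (GRCh38.p14) were at hand for 30 of the 35 genes. CCAAT, read on both strands, was found for 21 of 30 genes (70.0%), beside 39.7% of the 27305 genes with a window. It occurred for 5 of the 7 lower genes with a window, 1 of the 2 higher genes and 15 of the 21 genes not called. The sterol element core TCACNCCAC was found for 1 of the 30, SREBF2, beside 1.39% of all genes, and the E-box CACGTG for 5 (16.7%), beside 8.77%. Windows were not matched for base composition, and a match of letters is a description and not a site. The stretches shown lie just before the annotated start of 4 of the lower genes and of SREBF2, read 5′ to 3′ on the gene's strand from chr10:100346983-100347123 (SCD, plus), chr10:1049171-1049369 (IDI1, minus), chr11:65111622-65111844 (TM7SF2, plus), chr4:165327419-165327622 (MSMO1, plus) and chr22:41832855-41833078 (SREBF2, plus). Capitals mark CCAAT, or ATTGG where it lies on the opposite strand, and in SREBF2 also the sterol element core.
SCD: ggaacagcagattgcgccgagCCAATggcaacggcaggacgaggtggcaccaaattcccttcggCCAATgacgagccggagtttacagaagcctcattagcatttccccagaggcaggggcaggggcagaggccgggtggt
IDI1: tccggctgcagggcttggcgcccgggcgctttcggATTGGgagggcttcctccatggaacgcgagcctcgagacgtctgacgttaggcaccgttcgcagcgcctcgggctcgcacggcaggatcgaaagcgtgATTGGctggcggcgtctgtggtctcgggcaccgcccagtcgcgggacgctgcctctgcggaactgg
TM7SF2: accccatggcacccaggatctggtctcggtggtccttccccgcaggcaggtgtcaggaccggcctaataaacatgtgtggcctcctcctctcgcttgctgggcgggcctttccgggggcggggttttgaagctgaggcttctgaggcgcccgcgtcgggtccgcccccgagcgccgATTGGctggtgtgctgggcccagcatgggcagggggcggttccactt
MSMO1: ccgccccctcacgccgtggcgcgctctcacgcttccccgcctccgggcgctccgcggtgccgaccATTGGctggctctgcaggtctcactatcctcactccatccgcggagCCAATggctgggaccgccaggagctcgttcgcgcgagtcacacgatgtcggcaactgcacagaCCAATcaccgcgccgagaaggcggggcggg
SREBF2: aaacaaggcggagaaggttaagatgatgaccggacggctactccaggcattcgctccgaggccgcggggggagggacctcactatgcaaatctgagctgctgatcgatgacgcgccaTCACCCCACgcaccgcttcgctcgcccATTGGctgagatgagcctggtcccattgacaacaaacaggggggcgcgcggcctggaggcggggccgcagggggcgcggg
Within the stretches shown, MSMO1 has 3 matches of CCAAT (4 in its whole window), SCD and IDI1 have 2 each and TM7SF2 and SREBF2 have 1. The core in SREBF2 spans -133 to -125 from the RefSeq start. Only stretches with a match were shown, and the lower genes ELOVL6 and LPIN1 had no CCAAT in their windows.

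Genes of the same pathways outside the 35 were read from 4 further lists with 73 genes, of which 66 were tested, 4 were higher (6.06%, beside 8.93% of all genes) and 15 were lower (22.7%, beside 7.42%), with a median of -0.09. Of 23 tested genes of fatty acid and glycerolipid metabolism 6 fell (26.1%) and 2 rose (8.70%). FADS2, a desaturase of polyunsaturated fatty acids, had 61.3 and 59.5 CPM in sgATG9A and 96.5 and 86.2 CPM in sgGAL4 libraries (log2 fold change -0.60, adjusted p = 1.19e-07). SCD5, a paralog of SCD, had 50.5 and 48.1 CPM in sgATG9A and 61.6 and 61.1 CPM in sgGAL4 libraries (log2 fold change -0.31, adjusted p = 0.000576). FADS1, named after its values were seen, was also lower (log2 fold change -0.20, adjusted p = 0.00789, or 0.142 without sgATG9A library 2) and overlaps FADS2 in the annotation. TECR, the last reductase of fatty acid elongation, and SLC25A1, the mitochondrial citrate carrier, fell as well (log2 fold change -0.34 and -0.33). The 2 that rose were ELOVL7, an elongase (log2 fold change 0.53, adjusted p = 0.000127), and ME1, malic enzyme, a source of NADPH (log2 fold change 0.39, adjusted p = 4.2e-05).

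Of 21 tested further sterol genes 7 fell (33.3%) and 1 rose (4.76%). The ones that fell included the ubiquitin ligase gene MYLIP (log2 fold change -0.48) and TMEM97, which encodes a partner of NPC1 (-0.26, not called without sgATG9A library 2, adjusted p = 0.0608). The 1 that rose, LBR, named after its values were seen, encodes a lamina protein with the same sterol C14 reductase activity as TM7SF2, and had 221 and 227 CPM in sgATG9A and 191 and 198 CPM in sgGAL4 libraries (log2 fold change 0.21, adjusted p = 0.0073, or 0.0812 without sgATG9A library 2). The 2 C14 reductase genes were thus called in opposite directions. Of 14 tested lipid droplet genes 1 rose and 1 fell (7.14% each), shares near those of all genes. G0S2, an inhibitor of the triglyceride lipase ATGL, had 23.6 and 24.1 CPM in sgATG9A libraries, against 4.06 and 4.05 CPM in sgGAL4 libraries (log2 fold change 2.55, adjusted p = 1.22e-13), while the droplet coat gene PLIN3 was lower (log2 fold change -0.23, adjusted p = 0.00573, or 0.114 without sgATG9A library 2 and 0.0528 without sgGAL4 library 1). The 8 tested genes of the oxysterol route, which liver X receptors read, had a median log2 fold change of 0.01. Of these none rose (beside 8.93% of all genes) and 1 fell (12.5%, beside 7.42%).

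**Figure D4:**
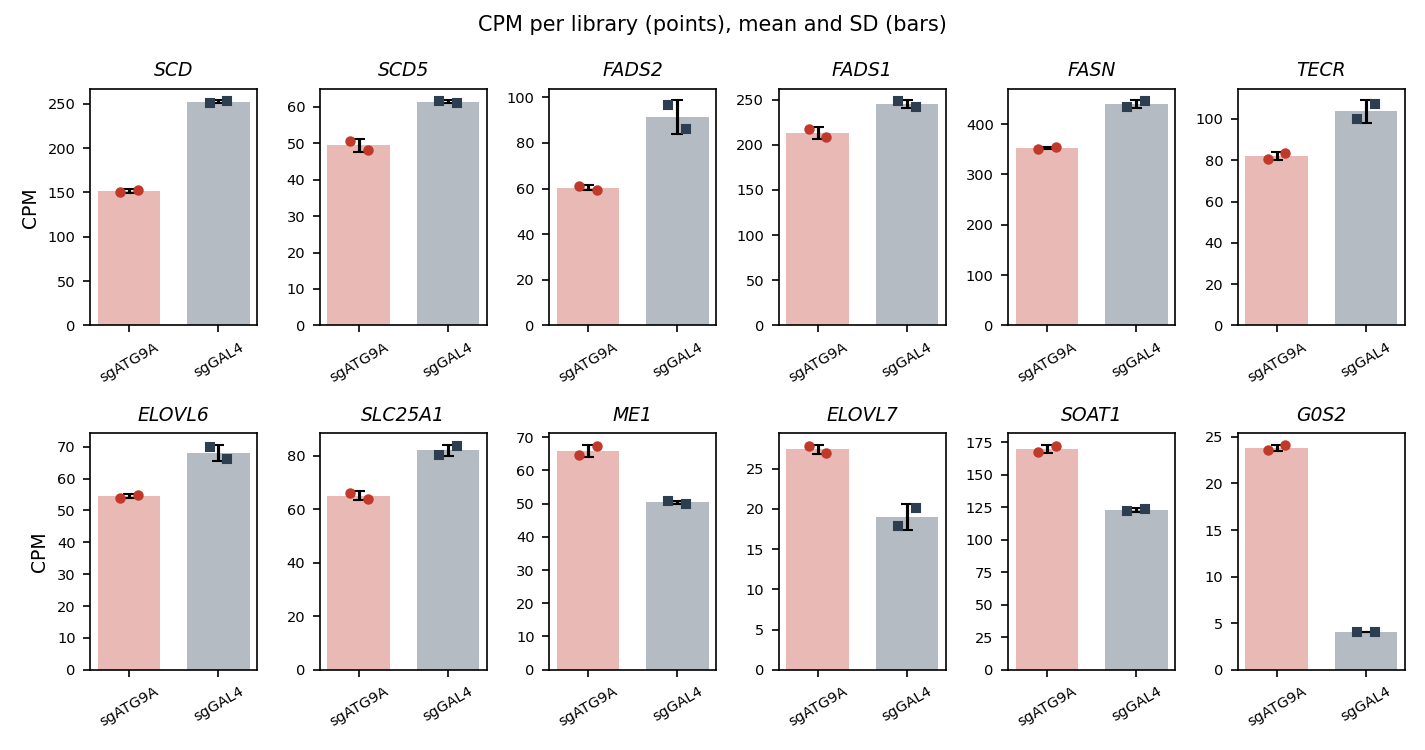
CPM in each library (points), with the mean (columns) and SD of 2 libraries (whiskers), for 12 lipid genes, each panel on its own linear axis from 0. SCD, SCD5, FADS2, FADS1, FASN, TECR, ELOVL6 and SLC25A1 are lower in sgATG9A, and ME1, ELOVL7, SOAT1 and G0S2 are higher.

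The calls differed in how far they depended on the analysis. Over 9 alternatives, all 12 called genes kept their sign, and 7 were called in every alternative, namely SCD, FASN, ELOVL6, IDI1, FDFT1, TM7SF2 and SOAT1. NPC1 was called in 8 of 9, missing the threshold only with no filter on low counts (adjusted p = 0.0594). MVK, MSMO1 and LPIN1 were called in 5 of 9 and ACAT2 in 3, and in DESeq2 their adjusted p was 0.213, 0.119, 0.0969 and 0.269.

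**Figure D5:**
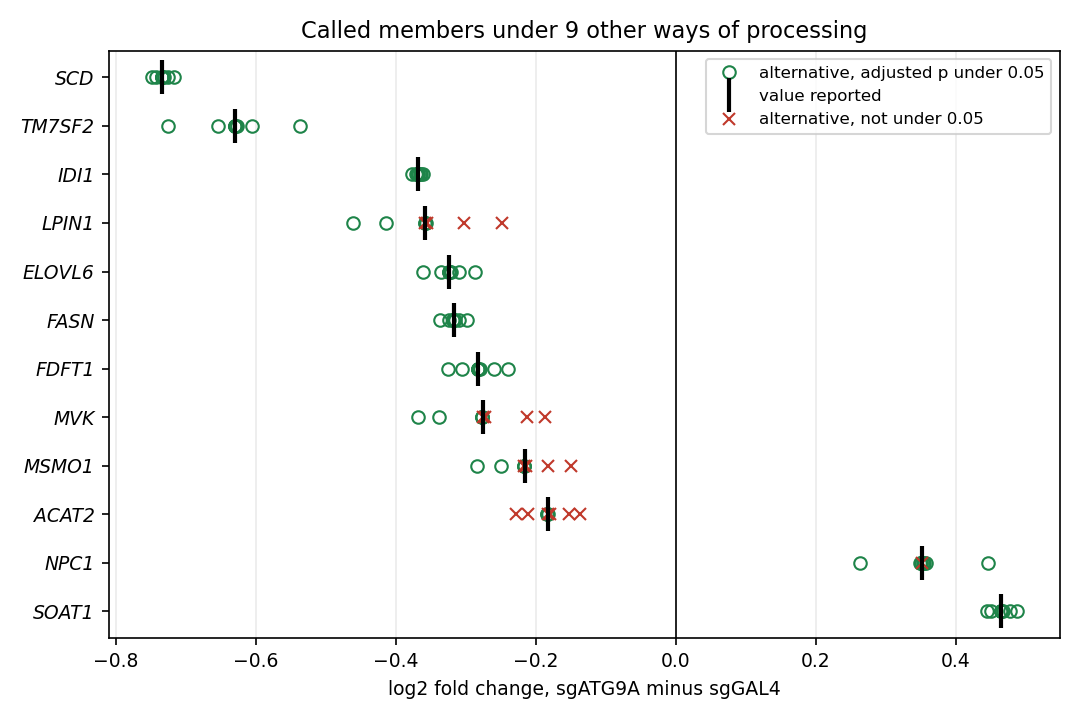
Log2 fold changes (sgATG9A minus sgGAL4) of the 12 called genes as reported (bars) and under 9 alternatives, with open circles where the adjusted p was under 0.05 and crosses where it was not. No point lies on the other side of 0, and crosses occur for LPIN1, MVK, MSMO1, ACAT2 and NPC1.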

How the data were processed

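Gene levels were measured as bulk RNA in 2 sgATG9A and 2 sgGAL4 OVCAR-8 libraries. The values deposited by the authors are raw, whole-number counts, which they made with cutadapt, FastQC, STAR and featureCounts from uniquely mapped reads on GRCh38 with GENCODE release 28, without regard to strand and without reads that overlap several genes. The labels name a 3′ end kit while the study's methods describe paired-end sequencing, so levels were not compared between genes. Symbols and positions came from GENCODE release 29 (58261 of 58381 identifiers) and promoters from RefSeq. Single-cell libraries of mouse immune cells were not analysed here.

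Differences were tested two-sided by the quasi-likelihood method of edgeR 4.0.16 under R 4.3.3, with TMM scaling and no covariate, on all 16141 genes that filterByExpr kept, with Benjamini-Hochberg adjustment over them. A gene was called at an adjusted p under 0.05. CPM values are counts over TMM-scaled library totals, and the SE is the log2 fold change over the square root of the F statistic. The script was tested on simulated counts. Alternatives were DESeq2 1.42.0, RLE size factors, no filter, at least 50 counts in all, the replicate number as a block, and leaving out each library. With 1 library left in a group, it is assumed to vary like those of the other group.

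The 35 genes and the other lists were chosen with earlier results of these data known. All 35 are accounted for by step. Values per library are given for those called and for the highest and lowest of each step, and other genes are named from 4 further lists, at most 6 a list by smallest p, except where stated. Not every called gene of these lists is reported here.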

Additional observations from a re-analysis of the deposited data

How the results depend on the processing

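The 9 alternatives were applied to each of the 35 genes, and 278 values kept their direction and side of the threshold, 19 lost the call, 4 gained it and 13 changed sign. All sign changes were in genes not called and came from leaving out a library, with ranges of -0.19 to 0.12 for PMVK, -0.21 to 0.11 for ABCA1, -0.098 to 0.037 for FDPS, -0.13 to 0.053 for LSS, -0.050 to 0.073 for NSDHL, -0.85 to 0.65 for ABCG1 and -0.011 to 0.060 for EBP. DESeq2 called 6 of the 35 genes lower, against 10 in edgeR, and of all genes 856 higher and 594 lower, against 1441 and 1198. With no filter on low counts, where 32430 genes were adjusted over, 1 of the 35 was higher and 6 were lower, and 578 and 365 of all genes. Leaving out a library left 7 to 9 of the 35 lower and 2 higher, 893 to 1177 of all genes higher and 736 to 887 lower, and a median of -0.14 to -0.10 over the 35, and without sgGAL4 library 1 the counts over all genes were the lowest. With at least 50 counts in all the median was -0.12, since ABCG1 with 42 counts was dropped. RLE size factors changed no call among the 35, with 1430 of all genes higher and 1210 lower. With the replicate number as a block, 13 of the 35 were lower and 2 higher, and 1840 of all genes higher and 1558 lower, and SQLE, SREBF2 and SCAP passed the threshold (adjusted p = 0.0439, 0.0164 and 0.0359). The sources do not say whether equal numbers mark a shared preparation. Over genes, the difference of replicate 1 from 2 in sgATG9A had a correlation of 0.050 with that in sgGAL4, or of 0.15 for genes above a mean log2 CPM of 3. The 2 libraries per group limit the precision, and genes with few counts, SC5D and ABCG1, carry the widest intervals.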
